A study of Homo sapiens with 10 samples.

Results

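Claudins are the membrane proteins that form the strands of tight junctions. The 9 members of the family described here are CLDN1, CLDN3, CLDN4, CLDN6, CLDN7, CLDN10, CLDN11, CLDN12 and CLDN16, which were named as a list and taken from the deposited annotation by symbol. They are 9 of the 24 classical claudin genes and of the 57110 gene identifiers of that annotation, and they hold 22 of its 99493 transcripts. Total RNA of 7 human ovarian cancer cell lines was read on nanopore instruments in 10 libraries. The lines COV362, COV504, OVMANA, OVKATE, OVTOKO and SK-OV-3 have 1 library each from the larger instrument, the PromethION. IGROV-1 was sequenced on it in 2 libraries and on the smaller MinION in 2. The labels give no treatment, no modification and no histological subtype for any line, and the series was made to benchmark a transcript quantification package.

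A claudin crosses the membrane several times, and its extracellular loops meet those of claudins in the next cell. Some members seal the space between cells, as CLDN1 and CLDN3 do, while others form paracellular channels for ions. In ovarian carcinoma CLDN3, CLDN4 and CLDN7 are known for high expression, CLDN3 and CLDN4 bind a clostridial enterotoxin, and CLDN6 is an oncofetal antigen that is studied as a therapy target.

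Library totals ranged from 1729782 to 3666224 estimated counts, and levels are given in CPM, the counts of a gene scaled to the total of its library. CPM is not divided by transcript length, so levels are compared between lines and not between claudins. A line with a single library has no replicate check of its own. The spread behind each test came from the IGROV-1 pairs, with 2 residual degrees of freedom. The labels do not say that those pairs are separate cultures, so p-values measure only the spread between these samples. Same-numbered libraries of the PromethION and MinION deviated together (r = 0.47), so the pairs may not be independent. The p-values of the line comparisons may then be too small. Between the instruments, leaving out such a pairing can make p-values too large instead. The IGROV-1 PromethION libraries stood apart in mitochondrial ribosomal RNA, which took 9.13% and 10.95% of their counts against 1.01% to 3.31% in the other 8 libraries. A count of 0 allows up to 3 counts, which is 0.64 CPM over both IGROV-1 PromethION libraries and between 1.18 and 1.73 CPM for each other line. Intervals and floors cover counting error only.

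Markers of the labelled tissue were read in each line. EPCAM, an epithelial adhesion molecule, was at 1814 CPM in OVMANA, 817 CPM in OVKATE and 365 CPM in COV504. COV362 had 158 CPM of EPCAM, SK-OV-3 45.6 CPM and OVTOKO 8.67 CPM. In IGROV-1 PromethION EPCAM was at 0.85 and 0.43 CPM and the epithelial cadherin CDH1 and the keratin KRT7 were listed at 0 CPM. So 3 of the 6 listed epithelial markers were at or near 0 there. The other 3 are keratins. In those libraries KRT18 was at 262.7 and 1041 CPM, KRT19 at 140 and 176 CPM and KRT8 at 6.41 and 5.15 CPM. Low values were not limited to IGROV-1. OVTOKO had 2.31 CPM of CDH1, 14.45 CPM of KRT7 and 0.58 CPM of KRT19, with 134 CPM of KRT8 and 314 CPM of KRT18. CDH1 was also at 5.06 CPM in SK-OV-3 and 1.57 CPM in COV362. PAX8, a transcription factor of the Mullerian lineage, was found in every line, from 84.1 CPM in SK-OV-3 to 340 CPM in OVMANA. The 5 leukocyte markers together reached at most 16.3 CPM and the 5 endothelial markers at most 28.0 CPM. The 5 fibroblast markers together were highest in SK-OV-3 at 306.9 CPM, of which COL1A1 made 219.3 CPM.

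**Figure D1:**
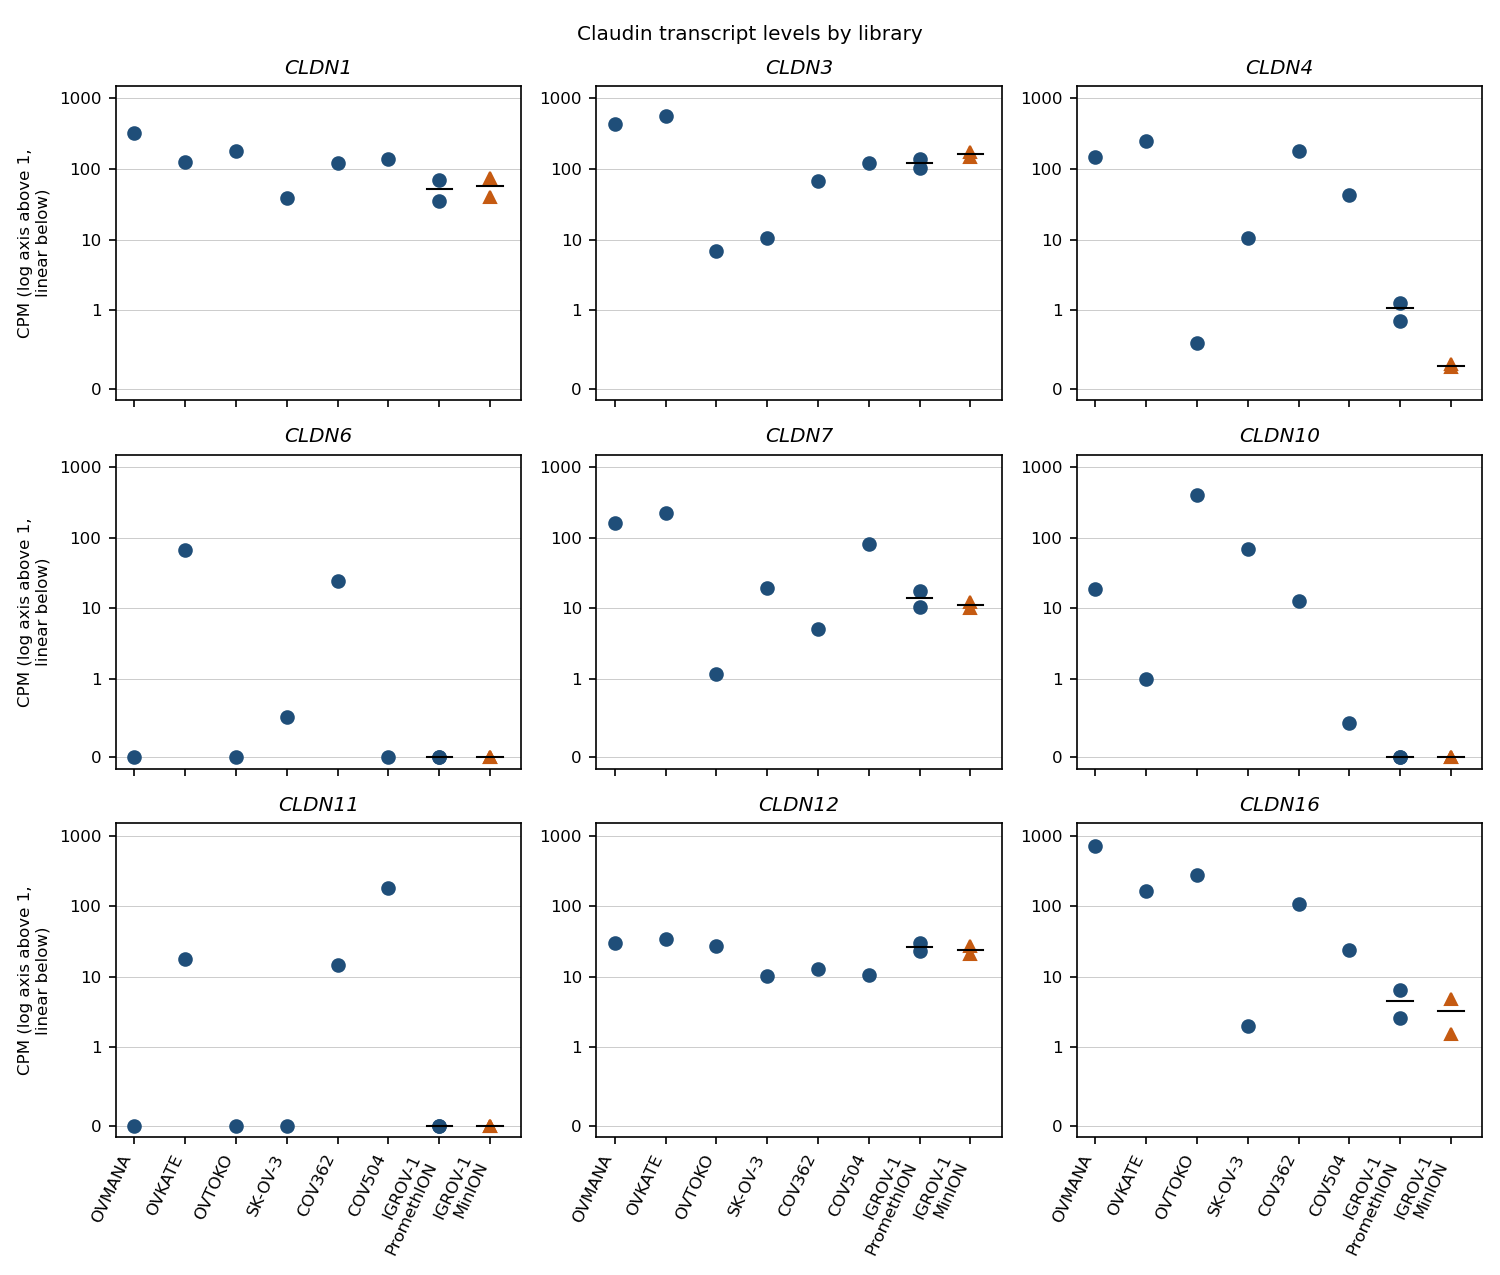
Level of each of the 9 claudins in each library, in CPM on an axis that is logarithmic above 1 and linear below. Circles are PromethION libraries, triangles are MinION libraries and short lines are means of the 2 IGROV-1 libraries of an instrument. CLDN1 and CLDN12 lie above 10 CPM in every library, while CLDN6, CLDN10 and CLDN11 lie at 0 in all 4 IGROV-1 libraries.

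Every claudin differed among the 7 lines. In edgeR's quasi-likelihood F test for any difference among lines, 9 of 9 members passed at an adjusted p under 0.05. So did 81.3% of the 13030 genes tested, so that count is near the background. The median log2 range of the members over the 7 lines was 6.72, on the log2(CPM + 1) scale, against 2.12 over all genes tested. The members were chosen with earlier results of these data known, so this difference describes the list and is no test. CLDN10 had the largest range of the members at 8.64 and CLDN12 the smallest at 1.66. For CLDN12 the result was lost in DESeq2 (adjusted p = 0.49).

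Set against IGROV-1 PromethION, the lines differed in how many claudins were called and in which direction. In OVMANA 6 of 9 members were higher and 0 lower, while 18.9% of all genes tested were called higher and 16.5% lower. OVKATE also had 6 higher and 0 lower, beside 26.8% and 22.4% of all genes. OVTOKO had 3 higher and 2 lower, beside 18.2% and 15.9%. In SK-OV-3 2 members were higher and 2 lower, with 22% and 19.8% of all genes. COV362 had 6 higher and 3 lower, with 23.7% and 18.8%, and COV504 had 5 higher and 1 lower, with 24% and 19.6%. These 6 comparisons share the IGROV-1 libraries as their reference, so their counts are not independent of one another. The reference had 0 counts of CLDN6, CLDN10 and CLDN11 and only 3 and 2 counts of CLDN4. These members could hardly be called lower in any line, so the directions are partly set by the reference. Without a count on either side were 2 members in OVMANA, 2 in OVTOKO, 1 in SK-OV-3 and 1 in COV504. The COV362 count was the least firm. Leaving out MinION replicate 1 or MinION replicate 2 lowered it to 5, as did PromethION libraries alone and DESeq2. The OVTOKO count was 3 without MinION replicate 1, and the COV504 count was 3 in DESeq2. In these bulk libraries, fewer cells with a transcript and less of it per cell cannot be told apart.

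**Figure D2:**
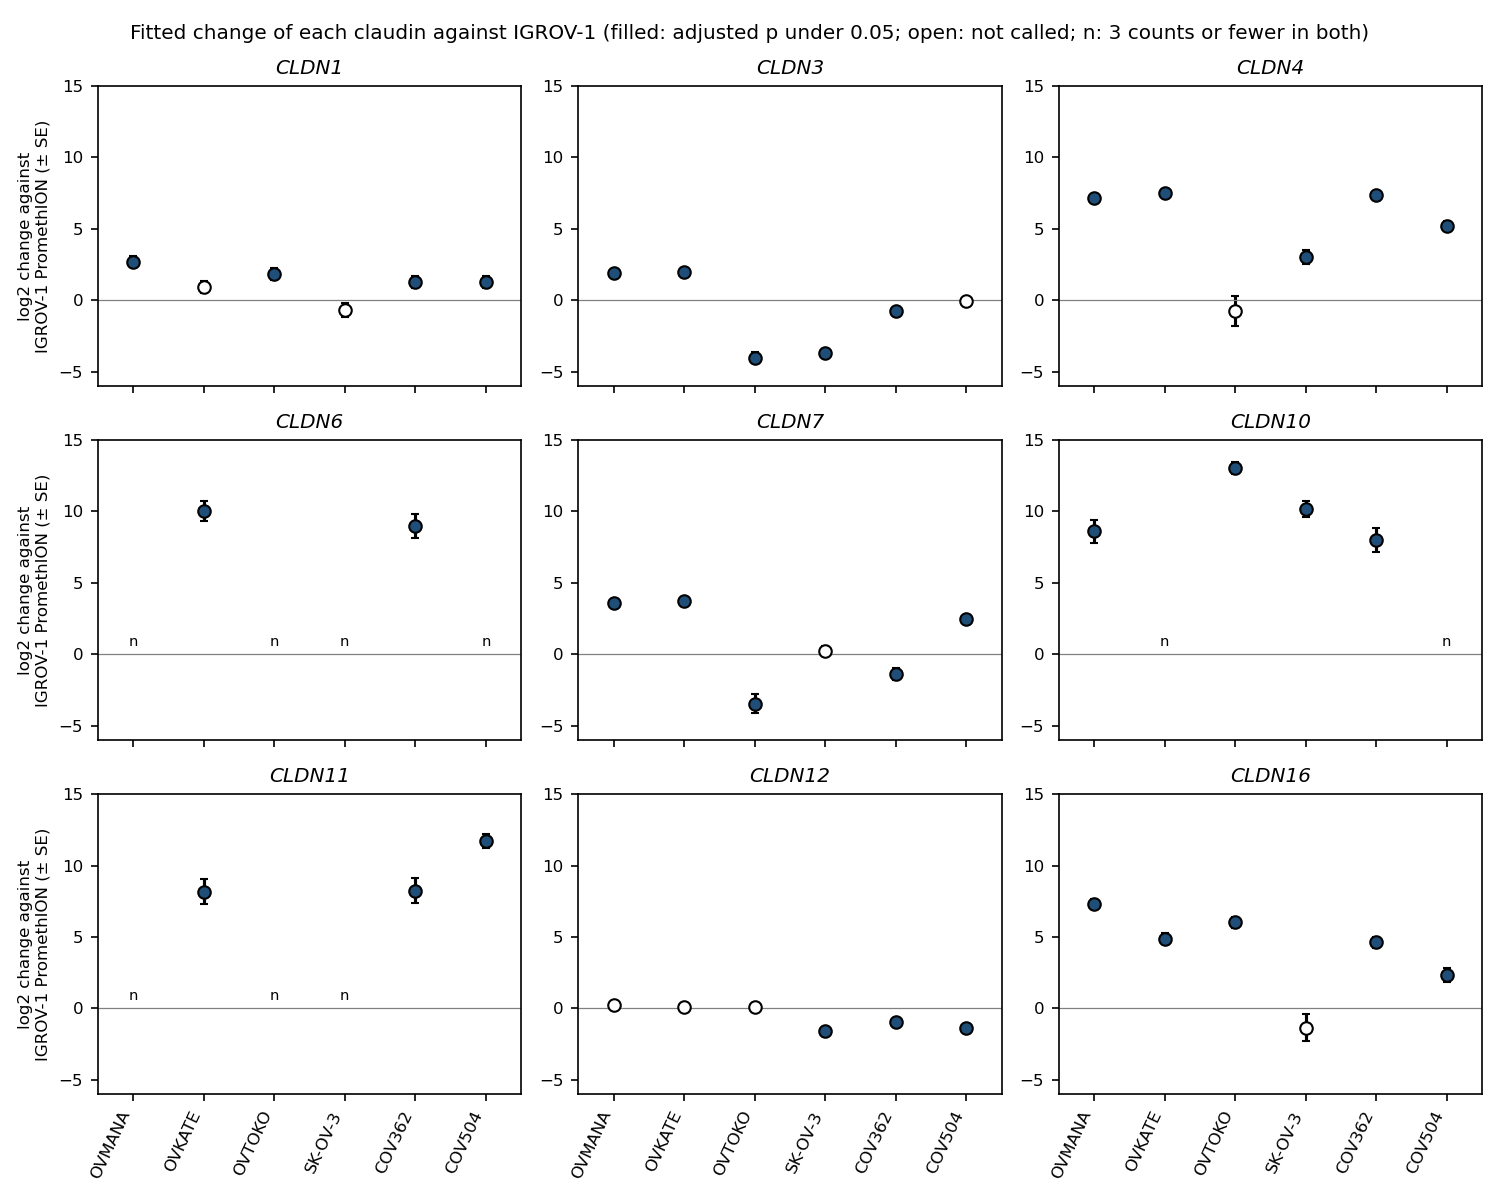
Fitted log2 change of each claudin in 6 lines against IGROV-1 PromethION, with bars of 1 SE. Filled points were called at an adjusted p under 0.05, open points were not, and n marks lines where both sides hold 3 counts or fewer. CLDN4 and CLDN16 rise in 5 of 6 lines each, CLDN3 and CLDN7 move in both directions, and the sizes shown for CLDN6, CLDN10 and CLDN11 depend on the fit because IGROV-1 has 0 counts.

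CLDN1, a sealing claudin of skin and other epithelia (chr3:190305701-190322475, minus strand, GRCh38), was present in every line. Its level was 328 CPM in OVMANA, 179 in OVTOKO, 137 in COV504, 124 in OVKATE, 123 in COV362 and 38.5 in SK-OV-3. In IGROV-1 it was 70.05 and 35.65 CPM on the PromethION and 75.55 and 39.55 CPM on the MinION. In CPM SK-OV-3 lay inside the range of the IGROV-1 libraries and the other 5 lines lay above it. On the scale of TMM, the normalization used in the tests, SK-OV-3 (34.05) lay below that range (37.05 to 79.36). Against IGROV-1 PromethION, CLDN1 was higher in OVMANA by a log2 change of 2.69 (SE 0.40, adjusted p = 0.0013) and in OVTOKO by 1.84 (SE 0.42, adjusted p = 0.01). In OVTOKO it did not pass when MinION replicate 1 was left out (adjusted p = 0.055). COV362 and COV504 passed narrowly, with log2 changes of 1.26 (adjusted p = 0.04) and 1.29 (adjusted p = 0.037). Both calls were lost without MinION replicate 1 (0.091 and 0.086), without MinION replicate 2 (0.067 and 0.061), without the filter on low counts, on PromethION libraries alone and in DESeq2. OVKATE was not called at 0.93 (SE 0.43, adjusted p = 0.1), but without PromethION replicate 1 the value was 1.49 (adjusted p = 7.3e-07). SK-OV-3 was not called at -0.69, but without PromethION replicate 2 it was -1.09 (adjusted p = 0.00081).

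The IGROV-1 replicates themselves differed in CLDN1. Replicate 1 had 1.96 times the level of replicate 2 on the PromethION and 1.91 times on the MinION, from 164 against 83 counts and 277 against 128 counts. CLDN16 showed the same order with ratios of 2.49 and 3.18, from 15 against 6 and 18 against 5 counts. The labels do not say whether an equal replicate number marks the same culture.

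CLDN16, known for paracellular magnesium and calcium transport in the kidney (chr3:190387872-190412143, plus strand), ranged more widely. OVMANA had 701 CPM, OVTOKO 279.8, OVKATE 165 and COV362 109, while COV504 had 24.0 CPM and SK-OV-3 2.03 CPM from 4 counts. The IGROV-1 libraries had 6.41 and 2.58 CPM on the PromethION and 4.91 and 1.54 on the MinION. The 5 lines other than SK-OV-3 all lay above the IGROV-1 libraries. OVMANA exceeded IGROV-1 PromethION by a log2 change of 7.33 (SE 0.36, adjusted p = 4.5e-06), OVTOKO by 6.02 (SE 0.38, adjusted p = 1.4e-05) and OVKATE by 4.88 (SE 0.39, adjusted p = 3.3e-05). COV362 was higher by 4.62 (SE 0.40, adjusted p = 7.1e-05). COV504 was higher by 2.33 (SE 0.51, adjusted p = 0.0065), a call lost in DESeq2 (adjusted p = 0.13). SK-OV-3 was not called at -1.35 (SE 0.93), though without PromethION replicate 2 it was -1.86 (adjusted p = 0.028). Without PromethION replicate 1 the OVMANA value was 8.12, the OVTOKO value 6.81, the OVKATE value 5.66, the COV362 value 5.41 and the COV504 value 3.11.

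CLDN1 and CLDN16 are neighbours that are transcribed from opposite strands, 65397 bp apart on chromosome 3. CLDN16 is the only other gene of the deposited annotation within 100 kb of CLDN1. Over the 7 lines their log2(CPM + 1) levels had a Pearson r of 0.94, the highest of the 36 pairs of members. Both were highest in OVMANA and second in OVTOKO. Both were low in SK-OV-3 and IGROV-1, between which no difference was called. The correlation describes 7 points that each stand for a line and share a library between both genes. TMEM207, which lies 16512 bp from CLDN16 on its other side, was at 0 CPM in every line, so the nearest gene beyond CLDN16 did not share this level. The promoter windows are printed because both genes moved together. They run from 250 bases before to 50 bases after the RefSeq start (GRCh38.p14), 5′ to 3′ on the gene's strand. Capitals mark the GC box GGGCGG and the E-box CAGGTG on either strand.
CLDN1 (chr3:190322397-190322696, minus): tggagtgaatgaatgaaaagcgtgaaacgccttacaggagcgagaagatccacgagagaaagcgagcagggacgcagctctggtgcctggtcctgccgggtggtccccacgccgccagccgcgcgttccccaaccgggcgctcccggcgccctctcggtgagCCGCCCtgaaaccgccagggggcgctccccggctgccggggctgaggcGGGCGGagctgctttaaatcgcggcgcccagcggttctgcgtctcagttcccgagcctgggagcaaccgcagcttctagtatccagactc
CLDN16 (chr3:190387913-190388212, plus): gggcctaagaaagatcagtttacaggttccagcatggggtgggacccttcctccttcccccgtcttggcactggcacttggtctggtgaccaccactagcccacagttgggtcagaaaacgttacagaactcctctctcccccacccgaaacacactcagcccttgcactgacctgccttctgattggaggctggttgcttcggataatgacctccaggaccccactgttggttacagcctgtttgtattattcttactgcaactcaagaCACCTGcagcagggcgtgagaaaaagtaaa
The CLDN1 window is 67.0% G or C with 31 CpG and 2 GC boxes, whereas the CLDN16 window shown, the nearer to the start of its leading transcript, is 53.0% G or C with 5 CpG and no GC box. That CLDN16 window holds 1 E-box and the CLDN1 window none. A second RefSeq window of CLDN16, 97511 bases from that start, is 40% G or C with 2 CpG, 1 GC box and no E-box. Of the 35116 promoter windows in the RefSeq table, 45.0% hold a GC box and 20.6% hold this E-box. The median window is 58.7% G or C with 14 CpG. These letters differ between the windows although the levels ran together, and a match of letters is a description only.

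CLDN3, a sealing claudin (chr7:73768997-73770270, minus strand), split the lines. It was at 570.3 CPM in OVKATE and 428 CPM in OVMANA. COV504 had 122 CPM, COV362 68.2, SK-OV-3 10.6 and OVTOKO 6.94 CPM from 12 counts. IGROV-1 had 137 and 103 CPM on the PromethION and 173 and 149 CPM on the MinION. OVKATE and OVMANA lay above all IGROV-1 libraries, COV362, SK-OV-3 and OVTOKO below them, and COV504 within their range. OVKATE was higher than IGROV-1 PromethION by a log2 change of 1.95 (SE 0.20, adjusted p = 0.00012) and OVMANA by 1.90 (SE 0.20, adjusted p = 0.00021). CLDN3 fell by 4.02 in OVTOKO (SE 0.36, adjusted p = 0.00011) and by 3.72 in SK-OV-3 (SE 0.33, adjusted p = 7.2e-05). In COV362 the change was -0.77 (SE 0.23, adjusted p = 0.028). That call was lost without PromethION replicate 1 (0.076), without MinION replicate 1 (0.082), without MinION replicate 2 (0.072), without the filter, on PromethION libraries alone and in DESeq2 (0.24). COV504 was at -0.05 (SE 0.22, adjusted p = 0.87), and 0.02 with RLE size factors.

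CLDN4, which partners CLDN3 as an enterotoxin receptor (chr7:73827744-73832693, plus strand), ran from near 0 to 246 CPM. OVKATE had 246 CPM, COV362 179, OVMANA 149, COV504 42.7 and SK-OV-3 10.6 CPM. OVTOKO had 0.58 CPM from 1 count. IGROV-1 had 1.28 and 0.86 CPM on the PromethION, from 3 and 2 counts, and 0.27 and 0.31 CPM on the MinION, from 1 count each. So 5 lines stood well above IGROV-1. ENST00000340958 held 93.91% to 99.5% of the CLDN4 counts in these 5 lines. It had 0 counts in both IGROV-1 PromethION libraries, whose CLDN4 counts were on transcripts that start upstream of it, and 1 count in each MinION library. OVTOKO had 0.54 times the IGROV-1 PromethION level, with an exact 95% counting interval of 0.0114 to 4.82 that includes a higher as well as a lower level. Against IGROV-1 PromethION the log2 change was 7.48 in OVKATE (SE 0.27, adjusted p = 1e-06), 7.37 in COV362 (SE 0.27, adjusted p = 1.3e-06) and 7.12 in OVMANA (SE 0.28, adjusted p = 1.5e-06). It was 5.17 in COV504 (SE 0.34, adjusted p = 1.3e-05) and 3.02 in SK-OV-3 (SE 0.46, adjusted p = 0.0012). With all 4 IGROV-1 libraries as the reference these changes grew to 8.26, 8.15, 7.90, 5.96 and 3.81.

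CLDN3 and CLDN4 are also neighbours on opposite strands, 57474 bp apart. Their r over the 7 lines was 0.68. OVMANA and OVKATE were high in both and OVTOKO low in both. IGROV-1 departed from this, with 119.89 ± 23.8 CPM of CLDN3 (SD, n = 2, PromethION) and 1.07 ± 0.30 CPM of CLDN4. CLDN3 ran closer to CLDN7 (r = 0.82) than to its own neighbour, and it ran against CLDN10 (r = -0.74). The other genes within 100 kb of CLDN3 included ABHD11, at 108 CPM in OVKATE and 18.2 CPM in SK-OV-3 (r = 0.81), and BUD23 at 57.7 to 146.9 CPM (r = 0.84). Not all of this span ran with CLDN3. The r was 0.35 for ABHD11-AS1, 0.17 for METTL27, 0.14 for STX1A, -0.02 for DNAJC30 and -0.25 for VPS37D. The start regions of the pair are shown for the difference in their composition, with capitals as above.
CLDN3 (chr7:73770221-73770520, minus): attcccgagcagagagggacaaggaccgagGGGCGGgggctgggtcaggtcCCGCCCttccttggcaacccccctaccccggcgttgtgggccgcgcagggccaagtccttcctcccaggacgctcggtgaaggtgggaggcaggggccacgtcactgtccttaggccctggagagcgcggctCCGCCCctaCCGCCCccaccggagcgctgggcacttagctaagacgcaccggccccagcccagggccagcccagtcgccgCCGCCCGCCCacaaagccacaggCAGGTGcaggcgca
CLDN4 (chr7:73830746-73831045, plus): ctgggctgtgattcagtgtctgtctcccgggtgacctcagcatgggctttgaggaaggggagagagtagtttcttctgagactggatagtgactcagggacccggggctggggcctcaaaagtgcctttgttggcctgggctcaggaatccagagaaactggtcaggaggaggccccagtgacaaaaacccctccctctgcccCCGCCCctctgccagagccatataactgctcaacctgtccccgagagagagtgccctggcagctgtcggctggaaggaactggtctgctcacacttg
The CLDN3 window is 72.0% G or C with 24 CpG, 6 GC boxes that may overlap and 1 E-box. The CLDN4 window is 59.0% G or C with 5 CpG, 1 GC box and no E-box. The deposited leading CLDN3 transcript starts at the RefSeq start, and that of CLDN4 starts 133 bases before it.

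**Figure D3:**
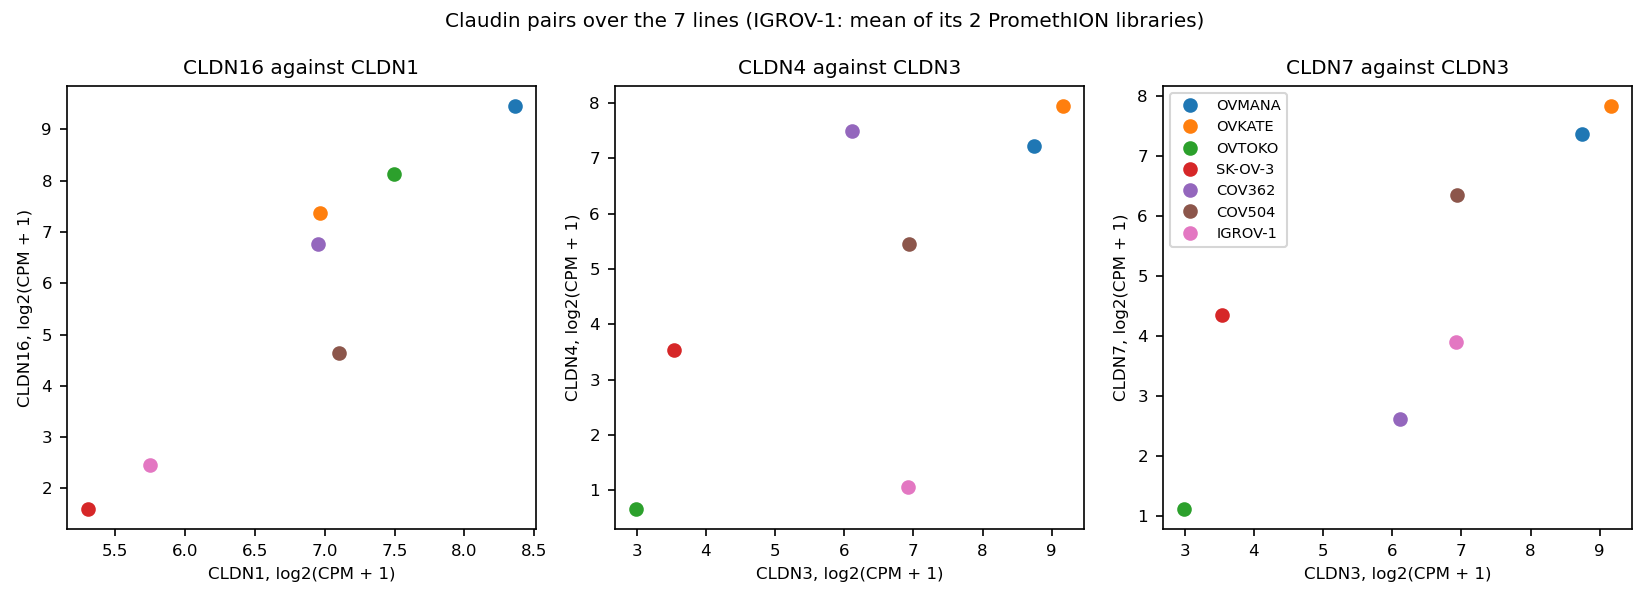
Levels of 3 pairs of claudins over the 7 lines as log2(CPM + 1), with 1 point per line and IGROV-1 as the mean of its 2 PromethION libraries. CLDN16 rises with CLDN1 (r = 0.94), CLDN7 with CLDN3 (r = 0.82), and in the plot of CLDN4 against CLDN3 (r = 0.68) IGROV-1 lies low in CLDN4 at a middle level of CLDN3.

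CLDN7, a claudin of the basolateral membrane that binds EPCAM (chr17:7259903-7263213, minus strand), was highest in OVKATE at 226 CPM and OVMANA at 163 CPM. COV504 had 80.1 CPM and SK-OV-3 19.25 CPM. COV362 had 5.09 CPM from 13 counts and OVTOKO 1.16 CPM from 2 counts. In IGROV-1 it was 17.5 and 10.3 CPM on the PromethION and 10.1 and 12.05 CPM on the MinION. OVKATE, OVMANA and COV504 lay far above the IGROV-1 libraries, SK-OV-3 just above them, and COV362 and OVTOKO below them. On the TMM scale SK-OV-3 (17.03) lay within the IGROV-1 range (10.6 to 18.12). CLDN7 rose in OVKATE by a log2 change of 3.72 (SE 0.24, adjusted p = 1.2e-05), in OVMANA by 3.61 (SE 0.25, adjusted p = 2e-05) and in COV504 by 2.44 (SE 0.26, adjusted p = 0.00017). SK-OV-3 was not called at 0.24 (SE 0.34). OVTOKO had 0.0831 times the IGROV-1 PromethION level, with an exact 95% counting interval of 0.00985 to 0.312. It was called lower (adjusted p = 0.0056), but not without MinION replicate 1 (adjusted p = 0.061). COV362 was called lower at -1.40 (SE 0.43, adjusted p = 0.029), and that call was lost without PromethION replicate 1 (0.11), without MinION replicate 1 (0.11), without MinION replicate 2 (0.097), without the filter, on PromethION libraries alone and in DESeq2. CLDN7 overlaps ELP5 on the opposite strand and a joined entry of CTDNEP1 on its own strand. Neither ran with it (r = -0.31 and -0.67). Reads in the overlap are uncertain because no strand setting is given for the counting.

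CLDN7 also varied in where its transcripts began. The main transcript, ENST00000360325, starts at chr17:7262478. ENST00000397317 starts 735 bases upstream with a noncoding first exon of 55 bases and has the same coding exons, so both encode the same protein. The upstream form held 33.44% of the CLDN7 counts in SK-OV-3 (Wilson 95% interval 21.21% to 50.11%, 38 counts) and 13.29% in COV504 (9.13% to 19.07%, 180 counts). Its share was 4.78% in OVMANA (3.0% to 7.95%, 305 counts) and 3.62% in OVKATE (2.34% to 5.88%, 457 counts). The 4 IGROV-1 libraries had 0.03%, 0.14%, 1.12% and 1.02%, each with an upper bound between 8.57% and 13.80%. The intervals of SK-OV-3 and COV504 did not overlap with each other or with those of OVMANA and OVKATE. The COV504 interval did overlap those of IGROV-1 PromethION replicate 2 (up to 13.80%) and MinION replicate 1 (up to 9.41%). OVTOKO and COV362 had too few counts for a share. Each share comes from a single library and from the authors' assignment of reads to transcripts.

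**Figure D4:**
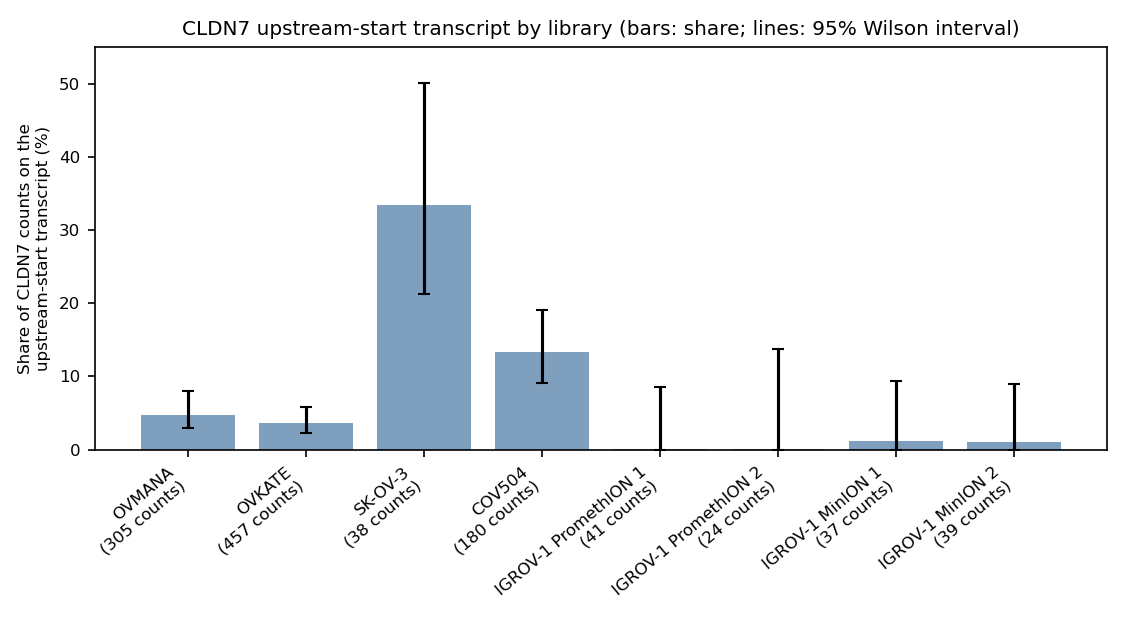
Share of the CLDN7 counts on the transcript that starts upstream, in percent, for the 8 libraries with at least 20 CLDN7 counts. Bars are shares and lines are 95% Wilson intervals. SK-OV-3 is highest at 33.44%, COV504 follows at 13.29%, and the IGROV-1 libraries lie at or below 1.12%. The COV504 interval overlaps those of IGROV-1 PromethION replicate 2 and MinION replicate 1.

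The windows around both CLDN7 starts show how the start regions differ, with the same motifs in capitals.
CLDN7 upstream start (chr17:7263164-7263463, minus): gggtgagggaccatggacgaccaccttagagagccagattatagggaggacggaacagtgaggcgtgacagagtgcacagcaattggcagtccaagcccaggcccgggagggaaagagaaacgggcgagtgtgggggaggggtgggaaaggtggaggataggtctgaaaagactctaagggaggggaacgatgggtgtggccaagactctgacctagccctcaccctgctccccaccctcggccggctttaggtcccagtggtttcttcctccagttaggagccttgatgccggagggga
CLDN7 main start (chr17:7262429-7262728, minus): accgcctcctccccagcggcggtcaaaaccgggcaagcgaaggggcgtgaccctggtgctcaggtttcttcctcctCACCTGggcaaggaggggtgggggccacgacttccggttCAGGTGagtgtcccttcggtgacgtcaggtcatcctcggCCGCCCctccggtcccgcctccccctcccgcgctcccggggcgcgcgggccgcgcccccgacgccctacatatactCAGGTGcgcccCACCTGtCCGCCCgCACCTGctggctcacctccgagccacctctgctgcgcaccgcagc
The main start lies in a window that is 71.7% G or C with 30 CpG, 2 GC boxes and 5 copies of the E-box. The upstream window is 60.0% G or C with 10 CpG and holds neither motif. No binding was measured here.

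CLDN10 gave the widest range of the 9 genes (chr13:95433604-95579759, plus strand). Its forms make paracellular pores for cations or anions, depending on which first exon is used. OVTOKO had 397 CPM, SK-OV-3 67.9, OVMANA 18.7 and COV362 12.5 CPM. OVKATE had 0.99 CPM from 2 counts and COV504 0.44 CPM from 1 count. All 4 IGROV-1 libraries had 0. So 4 lines were above the floor and 3 at or below it. Against the IGROV-1 PromethION floor of 0.64 CPM, CLDN10 was at least 617-fold higher in OVTOKO, 106-fold in SK-OV-3, 29.1-fold in OVMANA and 19.5-fold in COV362. The edgeR adjusted p was 5.6e-06, 5e-05, 0.0004 and 0.00064 in that order. OVKATE and COV504 were not called (adjusted p = 0.083 and 0.22), though OVKATE passed against all 4 IGROV-1 libraries (adjusted p = 0.024), and no fold is given because both sides lie at or below 3 counts. OVTOKO also exceeded SK-OV-3, the next line, by a log2 difference of 2.85 (SE 0.22, adjusted p = 0.00045).

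Nearly all CLDN10 reads went to a single form. ENST00000299339, which starts at chr13:95552725 and encodes the cation-pore form claudin-10b, held 99.46% to 99.95% of the counts in the 4 lines with at least 20 counts. ENST00000376873, which starts 119121 bases upstream and encodes the anion-pore form claudin-10a, held 0.05% to 0.54%. In OVTOKO, the line with the most reads, the first form had 99.46% (Wilson 95% interval 98.51% to 99.77%, 686 counts). Both have 5 exons, of which 3 are shared, and they begin with different first exons. The first 60 coding bases of each form, from GENCODE 29 with the start codon in capitals, show the 2 different beginnings of the protein.
claudin-10b (ENST00000299339, chr13:95552754-95552813): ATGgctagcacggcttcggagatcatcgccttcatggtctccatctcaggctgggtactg
claudin-10a (ENST00000376873, chr13:95433834-95433893): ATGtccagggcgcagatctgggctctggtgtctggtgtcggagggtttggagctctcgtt
These letters match at 20 of 60 positions when laid side by side without gaps. The windows at both starts follow, with motifs in capitals as before.
CLDN10 upstream start (chr13:95433505-95433804, plus): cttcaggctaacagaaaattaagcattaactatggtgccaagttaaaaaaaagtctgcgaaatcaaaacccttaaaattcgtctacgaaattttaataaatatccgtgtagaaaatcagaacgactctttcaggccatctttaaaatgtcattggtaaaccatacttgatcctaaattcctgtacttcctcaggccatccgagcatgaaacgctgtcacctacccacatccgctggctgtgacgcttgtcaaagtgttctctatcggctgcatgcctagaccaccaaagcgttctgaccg
CLDN10 downstream start (chr13:95552470-95552769, plus): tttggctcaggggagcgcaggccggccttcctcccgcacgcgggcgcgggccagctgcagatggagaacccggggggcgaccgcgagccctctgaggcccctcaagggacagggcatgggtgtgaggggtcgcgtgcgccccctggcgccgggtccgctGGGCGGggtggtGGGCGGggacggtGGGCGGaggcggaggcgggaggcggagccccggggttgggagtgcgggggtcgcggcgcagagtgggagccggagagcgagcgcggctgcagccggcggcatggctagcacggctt
The downstream window, at the start that was used, is 77.3% G or C with 36 CpG and 3 GC boxes. The upstream window is 41.7% G or C with 12 CpG and no GC box. Neither holds the E-box, and none of the 13 windows of the 9 genes holds TATAAA, which 11.5% of all windows do. DZIP1, which overlaps CLDN10 on the opposite strand, was at 4.7 to 33.0 CPM with its highest level in OVTOKO (r = 0.62). CLDN10-AS1, an antisense gene within CLDN10, was at 0 CPM in every line.

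CLDN6, an embryonic claudin that is silent in most adult tissue (chr16:3014712-3020071, minus strand), was found in only 2 of the 7 lines above the floor. OVKATE had 65.8 CPM and COV362 24.3 CPM. SK-OV-3 had 0.51 CPM from 1 count, and OVMANA, OVTOKO, COV504 and all 4 IGROV-1 libraries had 0. Relative to the IGROV-1 PromethION floor the level was at least 102-fold higher in OVKATE (adjusted p = 7.9e-05) and 37.8-fold higher in COV362 (adjusted p = 0.00038). OVKATE exceeded COV362 by a log2 difference of 1.09 (SE 0.32, adjusted p = 0.041). ENST00000396925 held 98.54% and 99.35% of the counts. That transcript starts 1888 bases upstream of the RefSeq start, within the overlap with TNFRSF12A on the opposite strand. TNFRSF12A was at 161 to 571 CPM in every line and its order did not follow CLDN6 (r = -0.27). CLDN9, 207 bp from CLDN6 on the opposite strand, reached 4.95 CPM in OVKATE and at most 1.16 CPM in another line.

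CLDN11, the claudin of myelin and of the barrier between Sertoli cells (chr3:170418865-170860380, plus strand), was likewise on or off. COV504 had 179 CPM, OVKATE 17.8 and COV362 14.9 CPM. The other 4 lines had 0, in IGROV-1 in all 4 libraries. Against the IGROV-1 PromethION floor CLDN11 was at least 278-fold higher in COV504 (adjusted p = 1.4e-05), 27.7-fold in OVKATE (adjusted p = 0.0005) and 23.2-fold in COV362 (adjusted p = 0.00059). COV504 exceeded OVKATE by a log2 difference of 3.55 (SE 0.28, adjusted p = 0.00039), and OVKATE and COV362 did not differ beyond their spread (-0.09, SE 0.36). A single transcript held all CLDN11 counts. SLC7A14, which lies within the span on the other strand, was at most 0.4 CPM in a line.

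CLDN12, a claudin without the usual scaffold-binding tail, was present everywhere (chr7:90403386-90513391, plus strand). The deposited files join it with AC006153.1 in a single identifier, so the values belong to both. OVKATE had 34.1 CPM, OVMANA 30.5, OVTOKO 27.2, COV362 12.9, COV504 10.7 and SK-OV-3 10.1 CPM. IGROV-1 had 29.9 and 23.2 CPM on the PromethION and 21.0 and 26.9 on the MinION. SK-OV-3, COV504 and COV362 lay below all IGROV-1 libraries, OVTOKO lay within their range, and OVMANA and OVKATE just above it. On the TMM scale OVKATE (28.71) lay within that range (22.06 to 30.94). CLDN12 fell by 1.61 in SK-OV-3 (SE 0.33, adjusted p = 0.0051), by 1.39 in COV504 (SE 0.32, adjusted p = 0.0083) and by 0.99 in COV362 (SE 0.30, adjusted p = 0.027). None of the 3 calls held in DESeq2 (adjusted p = 0.25, 0.38 and 0.59). The COV362 call was also lost without PromethION replicate 1 (0.089), MinION replicate 1 (0.073) or MinION replicate 2 (0.067). ENST00000394605 held 3.83% of CLDN12 counts in OVMANA (Wilson 95% interval 0.97% to 11.92%) and 21.72% in COV504 (9.24% to 40.47%). These intervals overlap at this depth of 57 and 24 counts.

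The order of lines was resolved in steps rather than line by line. Of the 54 pairs of lines next to each other in the order of a member, 22 differed at an adjusted p under 0.05, against 9.42% of the pairs over all genes tested. The count was 12 without MinION replicate 1 and 10 in DESeq2. Because the members were chosen with earlier results of these data known, the larger share among them is no test either. CLDN16 had 4 of 6 steps resolved, CLDN3, CLDN4, CLDN7 and CLDN10 had 3 each, CLDN6 and CLDN11 had 2, and CLDN1 and CLDN12 had 1. At the top, OVKATE and OVMANA did not differ beyond their spread in CLDN3 (0.05, SE 0.23) or CLDN7 (0.11, SE 0.24). In CLDN4, OVKATE, COV362 and OVMANA followed each other without a called step. At the bottom, SK-OV-3 and OVTOKO were not separated in CLDN3 (0.31, SE 0.55).

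The lines differed in which claudins were found. COV362 had more than 3 counts of all 9 members and OVKATE of 8, all but CLDN10. COV504, SK-OV-3 and OVMANA had more than 3 counts of 7 members each, and OVTOKO of 5. IGROV-1 PromethION had 6 with its 2 libraries summed, whereas each other line has 1 library. That number includes CLDN4, whose 3 and 2 counts are not above 3 in either library. OVMANA and SK-OV-3 had the same 7. OVMANA was highest of the lines in CLDN16 and, with no called step to OVTOKO, in CLDN1. OVKATE was highest in CLDN3, CLDN4, CLDN6 and CLDN7, though its steps to the next line in CLDN3, CLDN4 and CLDN7 were not called. In CLDN12 OVKATE was highest in CPM, but OVMANA was highest on the TMM scale (32.96 against 28.71), and these 2 lines did not differ beyond their spread. OVTOKO was highest in CLDN10 and second in CLDN16. It was low in CLDN7, where COV362 was not separated from it, in CLDN3, where SK-OV-3 was not, and in CLDN4, where IGROV-1 was not. SK-OV-3 was second in CLDN10. It was low in CLDN1 and CLDN16, where IGROV-1 was not separated from it, and in CLDN12, where COV504 was not (0.23, SE 0.43). COV504 was highest in CLDN11, and IGROV-1 had 0 counts of CLDN6, CLDN10 and CLDN11.

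The other claudins were mostly absent. Of the 15 classical claudin genes that are not members, 8 had 0 counts in every library and 3 reached a mean of 1 CPM over the lines. CLDN2, a channel for small cations, was the exception. It was at 624 CPM in OVTOKO and at most 1.78 CPM in any other line. CLDN15 stayed between 0.78 and 5.94 CPM. CLDND1, which shares the claudin domain but is not a classical claudin, was at 54.55 to 108.4 CPM in all libraries, with a log2 range over the lines of 0.93.

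The instruments were compared in IGROV-1, with 2 against 2 libraries. CLDN3 had 120 ± 23.8 CPM on the PromethION and 161 ± 17.6 on the MinION (SD, n = 2), and CLDN1 had 52.9 ± 24.3 and 57.5 ± 25.5 CPM. CLDN7 had 13.9 ± 5.09 and 11.1 ± 1.38 CPM, CLDN12 26.6 ± 4.74 and 23.9 ± 4.16, and CLDN16 4.49 ± 2.71 and 3.23 ± 2.38. CLDN4, too low for the edgeR test, had 1.07 ± 0.30 CPM on the PromethION and 0.29 ± 0.03 CPM on the MinION, and CLDN6, CLDN10 and CLDN11 were at 0 on both. Of the 5 members tested, 0 were called in edgeR at an adjusted p under 0.05, beside 0.817% of the 10041 genes tested. At an unadjusted p under 0.05, 0 of 5 passed in edgeR and 0 of 6 in DESeq2, but 2 of 5 passed without PromethION replicate 1, 1 of 5 with RLE size factors and 1 of 9 with all 10 libraries in the fit. A fit with the replicate number as a block called CLDN3 (adjusted p = 0.00026) at the same log2 change, but the labels do not say what that number marks. CLDN3 came nearest, with a log2 change of 0.39 (SE 0.17, unadjusted p = 0.05, adjusted p = 0.3) in the MinION libraries.

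The partners of claudins in the tight junction did not move as a block. Of 20 listed genes, 19 could be tested. The shares of all genes called in each line, given above, are the background of this and the following lists. In OVMANA 9 were higher than in IGROV-1 PromethION and 3 lower, with a median log2 change of 0.64, and in OVKATE 9 were higher and 7 lower with a median of 0.42. OVTOKO had 1 higher and 7 lower (median -0.53) and SK-OV-3 1 higher and 6 lower (median -0.95). COV362 had 6 and 5 (median -0.18) and COV504 7 and 6 (median 0.00). The median over all genes tested lay between -0.01 and 0.04. TJP1, the scaffold ZO-1 that binds claudin tails, was lower in all 6 lines, at 30.1 to 84.6 CPM against 123 and 155 CPM in IGROV-1 PromethION. OCLN, occludin, was lower in OVTOKO, SK-OV-3, COV362 and COV504 and not called in OVMANA and OVKATE (42.75 and 49.95 CPM against 26.5 and 33.9). F11R, the junctional adhesion molecule JAM-A, which is joined with another entry in the files, rose most in OVMANA (2.63, SE 0.27, adjusted p = 0.00016) and OVKATE (2.46, SE 0.27, adjusted p = 0.00015). CXADR, an adhesion protein and virus receptor, spanned 0 CPM in OVTOKO to 207 CPM in OVKATE. PARD3, a polarity scaffold, moved least, from 45.5 to 76.4 CPM.

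**Figure D5:**
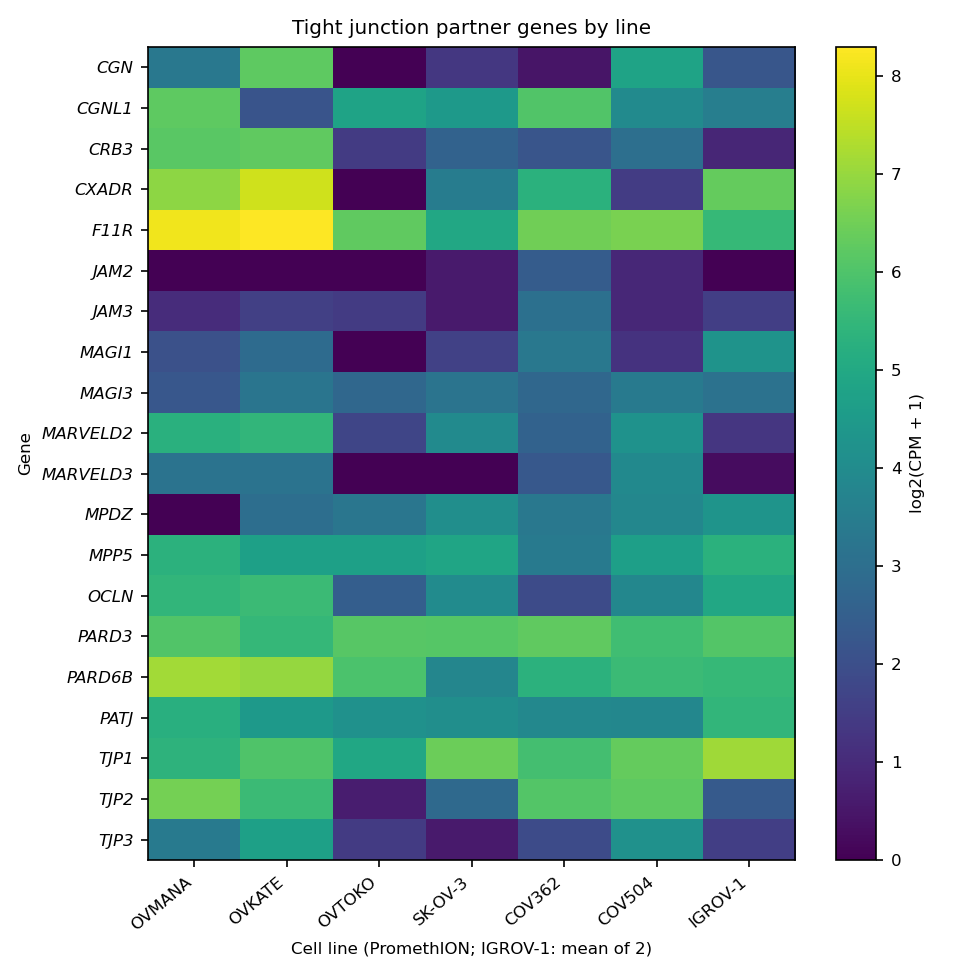
Levels of the 20 tight junction partner genes in the 7 lines as log2(CPM + 1), with IGROV-1 as the mean of its 2 PromethION libraries. F11R and CXADR are highest in OVKATE, TJP1 is highest in IGROV-1, PARD3 varies least, and CXADR is at 0 in OVTOKO. F11R is joined with another gene in the files, and MPP5 is the deposited symbol of PALS1.

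Epithelial surface genes that are linked to claudins, such as the CLDN7 partner EPCAM, were mostly higher than in IGROV-1 PromethION. Of 13 tested, 10 rose in OVMANA, 11 in OVKATE, 9 in OVTOKO, 7 in SK-OV-3, 11 in COV362 and 12 in COV504, with 1 lower in OVMANA and OVKATE and 0 in the others. SPINT2, a membrane protease inhibitor joined with 2 other entries, was at 473 to 2258 CPM in the other lines and 64.9 and 67.0 CPM in IGROV-1 PromethION. EPHA2, a receptor kinase that phosphorylates claudins, was at 51.45 to 136 CPM against 21.8 and 27.9 CPM.

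Regulators of epithelial genes were called in different numbers. Of 12 tested, OVKATE had 8 higher and 1 lower, COV504 7 and 1, OVMANA 6 and 1, with 4 and 3 in COV362, 1 and 2 in SK-OV-3 and 1 and 0 in OVTOKO. ESRP1, an epithelial splicing regulator, was at 87.1 CPM in OVMANA, 84.1 in OVKATE, 24.9 in COV504 and 5.09 in COV362, and at 0 in OVTOKO, SK-OV-3 and IGROV-1. The lines with ESRP1 are 4 of the 5 with more than 10 CPM of CLDN4. GRHL2, a transcription factor of epithelial genes, was above the floor only in OVKATE (24.2 CPM) and COV504 (8.90 CPM), and at 0 in OVMANA, which had 149 CPM of CLDN4. Of 11 mesenchymal markers tested, 8 rose and 0 fell in SK-OV-3 and 9 rose and 1 fell in COV504, against 5 and 0 in OVTOKO, 6 and 2 in COV362, 4 and 4 in OVKATE and 2 and 2 in OVMANA. VIM, vimentin, was at 5964 CPM in SK-OV-3 and 3663 CPM in OVTOKO, the 2 lines with the least CLDN3, and at 351 CPM in OVKATE. ZEB1, a repressor of epithelial genes, was at 54.7 CPM in SK-OV-3, 33.0 in OVTOKO, 6.41 in OVMANA and 0 in OVKATE. IGROV-1 PromethION had 30.3 and 30.9 CPM of ZEB1 with 505 and 457 CPM of VIM. Other markers of the list were ordered differently. SPARC, the marker with the widest range, was at 2043 CPM in SK-OV-3 and 843 CPM in OVKATE, but at 4.05 CPM in OVTOKO. CDH2 was at 51.7 CPM in SK-OV-3, 92.0 CPM in OVKATE and 0 in OVTOKO. The part of these genes in the claudin levels was not tested.

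Genes that act on claudin proteins were called in both directions. Of 8 tested kinases and turnover genes, 3 were higher in OVMANA, 4 in OVKATE, 1 in OVTOKO, 3 in SK-OV-3, 4 in COV362 and 4 in COV504, with 0, 2, 1, 2, 0 and 1 lower. WNK1, a kinase of ion transport that acts at tight junctions, stayed between 64.3 and 118 CPM. DAB2, an endocytic adaptor, ranged from 0 CPM in OVMANA and IGROV-1 PromethION to 17.3 CPM in OVKATE.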

How the data were processed

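RNA of each line was purified with a column kit and libraries were made with the LSK-110 ligation kit, with end repair lengthened to 30 min, per the labels' protocols. The submitters' processing notes name the aligner minimap2 2.24-r1122 and the build GRCh38. What is not given in the sources used here includes quantification settings, strand setting and read filters. The authors' files hold 1 expected count and 1 TPM for every transcript of a library, and these estimated counts, as deposited, can be fractions. The deposited TPM equalled the CPM of the transcript within 5.6e-11, so it carries no length correction. The files join 722 sets of overlapping genes under 1 identifier each.

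Transcript values were summed per gene by symbol, and the estimated counts were rounded, which changed at most 7.4e-14% of a library. Gene tests used edgeR 4.0.16 (R 4.3.3) with its quasi-likelihood test, TMM, the default filter by group, two-sided, and Benjamini-Hochberg adjustment over all 13030 genes tested. All 10 libraries entered the fit with 1 coefficient per group, so the spread came from IGROV-1 (2 residual degrees of freedom, 11.7% biological variation) and each lone library was assumed to vary like it. The instrument test used the 4 IGROV-1 libraries and 10041 genes. On simulated data with 200 changed genes, the line test found 24.5% of those changed by a log2 of 1 (2% of its calls were false, 11767 genes) and 79.5% of those changed by 2 (5.4% false, 11791 genes). The instrument test found 62% at a log2 of 1 (3.1% false, 10034 genes). The simulated libraries had the same spread (11.7%) for every gene, independent replicates and no changed genes beyond the 200. Only OVMANA was changed in the line test. The deposited libraries differ in far more genes and may not be independent, so these shares are not the false-call rates of the real calls. The chi-square per degree of freedom between IGROV-1 replicates was 4.36 and 6.73, above sampling noise, and they were kept as replicates.

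Transcript shares are of libraries with at least 20 counts of the gene, with Wilson 95% intervals. All 9 members are named in the comparison of lines and of instruments. Of each list the genes with the highest mean, the widest and the narrowest range were named, with EPCAM, CDH1, OCLN, TJP1, GRHL2, ZEB1 and VIM, transcripts with at least 10% of a gene, genes within 100 kb of a member and the 3 genes most like each member over the lines. Some genes that this rule names are not reported here. The rarer CLDN10 form, ENST00000376873, falls outside this rule and was chosen after its values were seen. The members and lists were chosen with earlier results of these data known. Sequences are from RefSeq (GRCh38.p14, all 9 members matched with 13 windows) and GENCODE 29. Alternatives were RLE size factors, no filter, leaving out each IGROV-1 library, PromethION libraries only, all 4 IGROV-1 libraries as reference, DESeq2 1.42.0 and a replicate block.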

Additional observations from a re-analysis of the deposited data

How the results depend on the processing

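Of the changes of single members under all alternatives, 499 kept their direction and their side of the threshold, 33 lost a call, 5 gained one and 12 turned sign. On the TMM scale 80 of the 90 levels stayed within a 95% counting interval from the library's own counts, and 10 moved beyond it. DESeq2 called fewer genes in each line: 1464 in OVMANA, 2117 in OVKATE, 1329 in OVTOKO, 1691 in SK-OV-3, 1585 in COV362 and 1769 in COV504, against 4613, 6405, 4443, 5446, 5544 and 5672 in edgeR, and 3832 against 10590 for any difference among lines. DESeq2 called 5 members in COV362 (9 in edgeR), 3 in COV504 (6) and 10 neighbouring pairs (22). PromethION libraries alone gave 5 members in COV362. Leaving out 1 IGROV-1 library at a time gave 2890 (without MinION replicate 1) to 4398 genes in OVTOKO, 3 to 5 members in OVTOKO, 5 to 9 members in COV362 and 12 to 25 neighbouring pairs. The cause of these shifts was not tested.

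Signs turned only for changes that were not called. CLDN3 in COV504 was 0.02 with RLE size factors, 0.02 in DESeq2 and -0.24 to 0.16 with 1 library left out. CLDN4 in OVTOKO was 0.02 against all 4 IGROV-1 libraries. With 1 library left out, CLDN7 in SK-OV-3 ranged from -0.09 (without PromethION replicate 2) to 0.66, CLDN12 in OVKATE from -0.11 (the same) to 0.25 and CLDN12 in OVTOKO from -0.06 (the same) to 0.30. Between instruments, CLDN1 ranged from -0.50 (without MinION replicate 1; -0.31 without PromethION replicate 2) to 0.67, CLDN7 from -0.71 to 0.06 (without PromethION replicate 1) and CLDN16 from -1.59 to 0.32 (without PromethION replicate 1; 0.13 without MinION replicate 2).

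The instrument comparison called 82 genes, 15 without the filter, 49 with all 10 libraries in the fit, and 4 (without MinION replicate 2) to 209 (without PromethION replicate 1) when 1 library was left out. With the replicate number as a block it called 1978 genes and 1 member, CLDN3 (0.39, adjusted p = 0.00026). Same-numbered libraries deviated together (r = 0.47 over 8244 genes), but the labels do not say what the number marks, so this pairing rests on 2 pairs and the data alone. With lines of 1 library, no paired analysis was possible because they share no replicate numbers with IGROV-1.

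Depth limits the low members: 3 counts are 0.82 to 1.73 CPM in a library. Where CLDN6, CLDN10 and CLDN11 are listed at 0, they may lie anywhere up to that level.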

Other observations

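For each member up to 3 genes with the most similar profile over the 7 lines were found by Pearson r of log2(CPM + 1) among 11211 genes. With 7 points and this many genes, high values of r are common, and they describe these libraries only. CLDN4 ran with EFHD1 (r = 0.994), ST3GAL1 (r = 0.99) and EGLN3 (r = 0.986). EFHD1, a calcium-binding mitochondrial protein, was at 39.1 CPM in OVKATE, 31.3 in COV362, 18.7 in OVMANA, 11.1 in COV504, 4.1 in SK-OV-3 and 0 in OVTOKO. CLDN11 ran with 3 developmental transcription regulators, ISL1 (r = 1.00), ZIC1 (r = 0.997) and EYA2 (r = 0.99). ZIC1 was at 100.5 CPM in COV504, 14.3 in OVKATE and 7.1 in COV362, and at 0 in the other lines, the same 3 lines that have CLDN11. CLDN6 ran with CHODL (r = 0.999), at 17.8 CPM in OVKATE and 9.0 CPM in COV362, with DAPL1 (r = 0.997) and with NRBP2 (r = 0.996).

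CLDN10 was nearest to CEBPD (r = 0.975), a transcription factor at 540.0 CPM in OVTOKO, 265.9 in SK-OV-3 and 37.3 in IGROV-1, and to PRKAG1 (r = 0.958). CLDN7 was nearest to MYH14 (r = 0.977), a nonmuscle myosin at 50.9 CPM in OVKATE and 0 in OVTOKO and COV362, then to PRR12 (r = 0.963) and HID1 (r = 0.962). CLDN3 was nearest to LARGE2 (r = 0.982), MRPL32 (r = 0.98) and KLHL12 (r = 0.972). CLDN1 was nearest to BIRC3 (r = 0.975) and BZW2 (r = 0.954), and CLDN16 to ASPHD1 (r = 0.955), CCDC8 (r = 0.947) and F12 (r = 0.941). CLDN12 was nearest to HK2 (r = 0.974), POR (r = 0.964) and HEATR5B (r = 0.946).

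The levels of 2 neighbours, chosen after their values were seen, were unlike those of the member. CDK14, a kinase 83106 bp from CLDN12, ran against it (r = -0.8), from 0 CPM in OVMANA, OVTOKO and IGROV-1 to 42.3 CPM in COV504. BICDL2, 7613 bp from CLDN6, was at 33.6 CPM in OVKATE and 0 in COV362, the second line with CLDN6.

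KRT18 differed between the IGROV-1 replicates in the same order on both instruments, at 262.7 and 1041 CPM on the PromethION and 243.6 and 1080 CPM on the MinION. CLDN1 ran the other way, with replicate 1 above replicate 2 on both.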
